A study of Drosophila melanogaster with 2 samples.

Results

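Chromatin immunoprecipitation with sequencing (ChIP-seq) located the zinc finger protein l(3)neo38 at 4 genes of Drosophila melanogaster, the head gap genes ems, oc and btd and the gene E5, which is next to ems. All 4 were among the 13945 protein-coding genes of the Ensembl annotation on build dm6. The authors' thresholded list held 3953 peaks, and 15 of their summits were assigned to these genes, 4 to ems, 3 to E5, 7 to oc and 1 to btd. A summit is the position inside a peak that the authors gave. It was assigned to a gene when it lay in the gene body, or within 10 kb of the body with no other protein-coding gene nearer. The genes were chosen by their known roles and by the peak strengths in these same lists, so their counts, strengths and ranks are a description and carry no test. The ChIP-seq covered 2 biological replicates of 1 group. Their embryos, of both sexes and from 0 to 24 h of age, came from a fly line that stably carries l(3)neo38 with GFP joined to its C-terminus, and the sample description names an antibody to GFP for the precipitation. The antibody label names l(3)neo38 itself, and the labels do not settle whether this is the tagged target or what the antibody was raised to. Shearing by sonication gave fragments of 200 to 800 bp. The labels name no driver for the tagged gene and do not say whether the line also keeps an untagged copy. The lists average over all stages and tissues of embryogenesis, and no untagged embryos, other factors or RNA levels were analysed here.

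In the early embryo, head gap genes divide the anterior end into broad overlapping domains that later give rise to head segments. Maternal Bicoid protein helps to switch them on. oc, also called orthodenticle, encodes a homeodomain protein of the Otx family and is needed for anterior head and eye and for the embryonic brain. ems, or empty spiracles, encodes a homeodomain protein of the Emx family, with roles in the head, the brain and the tracheal openings. E5 encodes a related homeodomain protein. btd, or buttonhead, encodes a zinc finger protein of the Sp family, and its relative Sp1 is the next protein-coding gene along the X chromosome. Genes of this kind are known for enhancers that lie many kilobases from their starts, so both near and distant summits are described here.

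The sequences that follow are those at the strongest summit, the strongest distant oc summit and the summit at the start of each gene. Each reaches 50 bp to either side of the summit. They come from the RefSeq release 6 genome, plus strand. They are shown because they differ in kind: some hold the word GAGAG on either strand and some hold short runs of C or G. The window labelled ems start has neither. Each window labelled start is centred on a summit 167 to 307 bp upstream of that gene's start and does not reach it. Capitals mark matches to GAGAG or to its reverse complement, and runs of 4 or more C or G. In the order given they lie at chr3R:13877300-13877400, chr3R:13875173-13875273, chr3R:13901636-13901736, chrX:8650923-8651023, chrX:8660499-8660599 and chrX:9693969-9694069.
E5 at 2434 bp: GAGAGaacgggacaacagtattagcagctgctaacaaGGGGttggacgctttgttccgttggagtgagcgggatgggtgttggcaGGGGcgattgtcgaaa
E5 start: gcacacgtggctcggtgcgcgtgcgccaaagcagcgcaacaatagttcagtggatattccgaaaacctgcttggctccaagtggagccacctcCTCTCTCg
ems start: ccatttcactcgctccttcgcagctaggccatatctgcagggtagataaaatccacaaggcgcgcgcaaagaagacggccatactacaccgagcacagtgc
oc start: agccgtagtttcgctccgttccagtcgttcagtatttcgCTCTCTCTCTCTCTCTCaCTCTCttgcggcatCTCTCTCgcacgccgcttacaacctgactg
oc at 9868 bp: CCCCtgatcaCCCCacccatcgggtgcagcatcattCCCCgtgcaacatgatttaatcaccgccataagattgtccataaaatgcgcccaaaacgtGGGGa
btd start: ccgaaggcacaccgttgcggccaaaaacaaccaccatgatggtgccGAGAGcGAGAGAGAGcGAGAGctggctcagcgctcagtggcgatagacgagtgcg

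The strongest of the 15 summits was at E5. It ranked 10th of the 3953 peaks, with a signal value of 1561, which is the authors' own measure of peak strength and is used here only within a list. The peak covered chr3R:13877135-13877613, and its summit at 13877350 was 2434 bp upstream of the E5 start, in intergenic sequence. Replicate 1 gave it rank 8 and a signal value of 1022, and replicate 2 gave it rank 18 and a signal value of 541. The median signal value over all 3953 peaks was 209.6, and the median over the 15 summits was 253.5, so this summit stood far above the other members. E5 (FBgn0008646) lies at chr3R:13867345-13874916 on the minus strand. Its other summits were weaker, at 236 for the one 307 bp upstream of the start (rank 1596) and 140.73 for the one 5815 bp upstream. In replicate 1 they had ranks 1346 and 4284, and in replicate 2 they had ranks 2662 and 4827. The more distant one ranked 3950th and lay just inside the list, whose weakest peak had a signal value of 140.69. The next pooled entry, ranked 3954th and outside the thresholded list, had 140.687.

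At ems the 4 summits were all upstream of the gene and of middle to high strength. ems (FBgn0000576) lies at chr3R:13901853-13904620 on the plus strand. The summit at its start, 167 bp upstream, was the strongest, with a signal value of 479 and rank 337. Its signal value was 260 in replicate 1 (rank 407) and 225 in replicate 2 (rank 290). A group of 3 more lay several kilobases upstream. The summit at 6053 bp had a signal value of 349 and ranked 716th, with 192 in replicate 1 (rank 837) and 165 in replicate 2 (rank 640). The summits at 4514 and 4308 bp were 206 bp apart in overlapping intervals, with signal values of 254 and 215. These close neighbours were not resolved in the same way by both replicates. Replicate 2 held an entry at each, ranked 1381st and 3911th. Replicate 1 held a single entry, ranked 1467th, which was 33 bp from the second and 173 bp from the first. Both are counted here because the thresholded list holds both.

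E5 and ems are transcribed away from each other, and all 7 of their thresholded summits fell in the 26936 bp between them, at chr3R:13874917-13901852. No gene is annotated there. None of the 7 lay inside either gene body or downstream of either gene. The E5 summits and the ems summits formed separate groups, with a gap of 15069 bp in which the thresholded list held no summit. The pooled list, made by the authors from both replicates together, is labelled as peaks and background. Within the whole interval it held 13 weaker entries beside the 7. In the stretch over 10 kb from both genes it held 4, with signal values of at most 61.3. The strongest E5 summit was 2434 bp from the E5 start and 24503 bp from the ems start. These data hold no measure of which gene a region acts on, so the assignment is by distance alone.

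**Figure D1:**
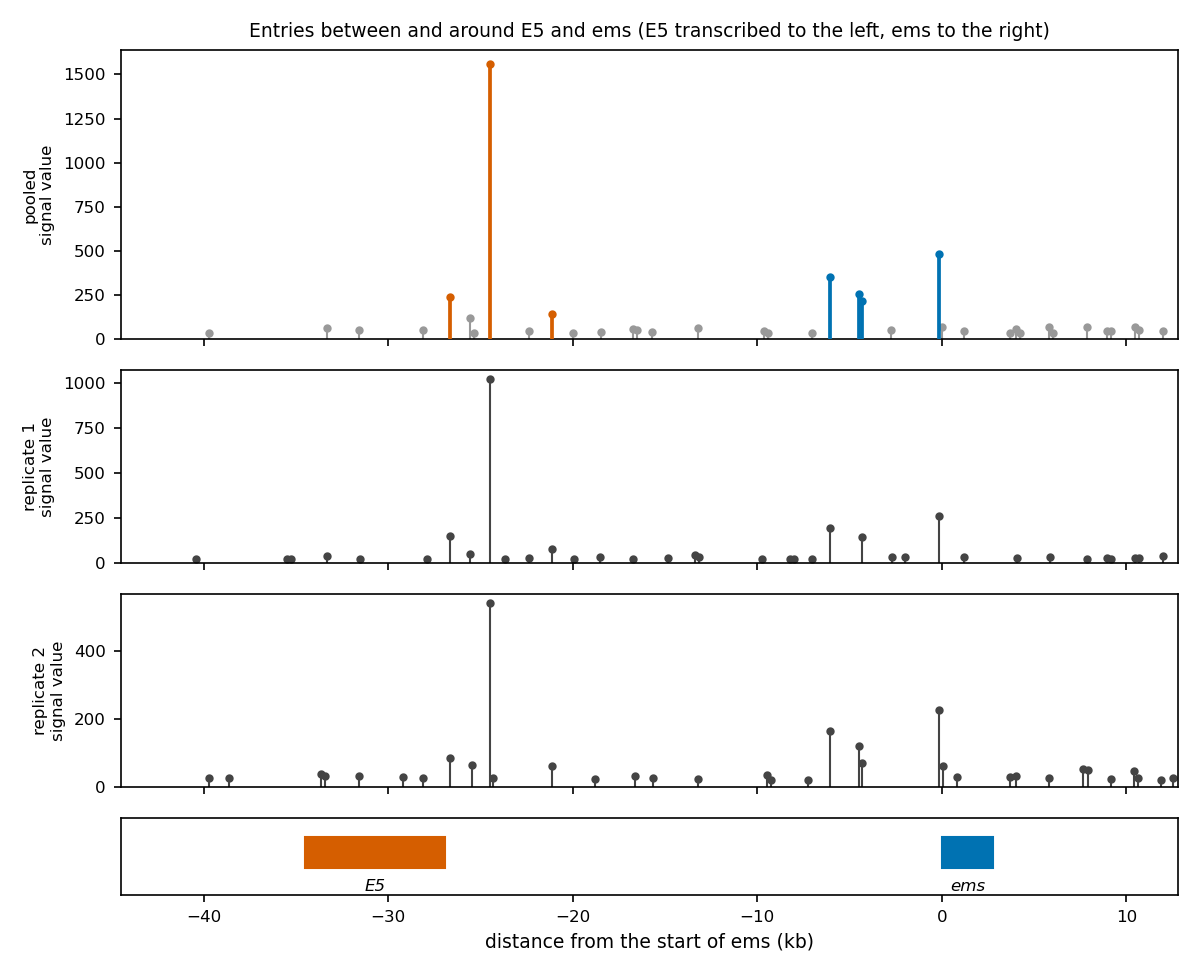
Signal values (y axes) of the entries in the pooled list and in each replicate list, against distance from the ems start in kb (x axis), with the gene bodies in the bottom panel. Orange and blue stems in the top panel are the thresholded summits assigned to E5 and to ems, grey stems are weaker pooled entries, and dark stems are replicate entries; all 7 coloured stems stand between the gene bodies, and the tallest, at 1561, is next to E5.

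oc had the most summits of the 4 genes, spread over 38.0 kb. oc (FBgn0004102) is also the longest, at chrX:8630159-8650681 on the minus strand, with a body of 20523 bp. The strongest pair were close in strength and 9576 bp apart. One lay 9868 bp upstream of the first oc start and had a signal value of 446 (rank 389). The other lay 292 bp upstream of that start and had a signal value of 427 (rank 437). In replicate 1 the distant one had a signal value of 212 (rank 677) and the one at the start had 249 (rank 458). In replicate 2 the distant one had 245 (rank 227) and the one at the start had 191 (rank 447). Their order therefore differed between the replicates. A further upstream summit at 6514 bp had a signal value of 224, with rank 1684 in replicate 1 and rank 1865 in replicate 2.

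The remaining oc summits lay inside or beyond the gene. Those in the gene body were intronic, 9815 and 14122 bp downstream of the first start, and weak, with signal values of 149 and 144. Another annotated oc start lay nearer, 2310 bp from the first of them and 6617 bp from the second. The first had rank 4711 in replicate 1 and rank 3057 in replicate 2. The second had rank 4574 in replicate 1 and rank 4093 in replicate 2. Beyond the 3' end of the gene were summits at 2690 and 7601 bp, with signal values of 195 and 281. The first of these was at rank 3606 in replicate 1 and rank 1369 in replicate 2, so replicate 2 placed it much higher. The second was at rank 1354 in replicate 1 and rank 1075 in replicate 2. One more thresholded summit lay just outside the 10 kb reach. It was 10718 bp from the gene body, upstream of the gene and 850 bp from the 9868 bp summit, with a signal value of 367 (rank 644), and oc was also its nearest protein-coding gene.

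btd had 1 assigned summit. btd (FBgn0000233) lies at chrX:9694186-9697558 on the plus strand, and the summit was 167 bp upstream of its start, the same distance as at ems. It had a signal value of 306 and ranked 956th, with 164 in replicate 1 (rank 1148) and 141 in replicate 2 (rank 954). No thresholded summit fell in the btd body or within 10 kb downstream. Further upstream, summits at 6423 and 7461 bp, with signal values of 228 and 141.3, were nearer to nej, the fly CBP histone acetyltransferase gene, and were assigned to it. The first of these was 697 bp from nej.

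**Figure D2:**
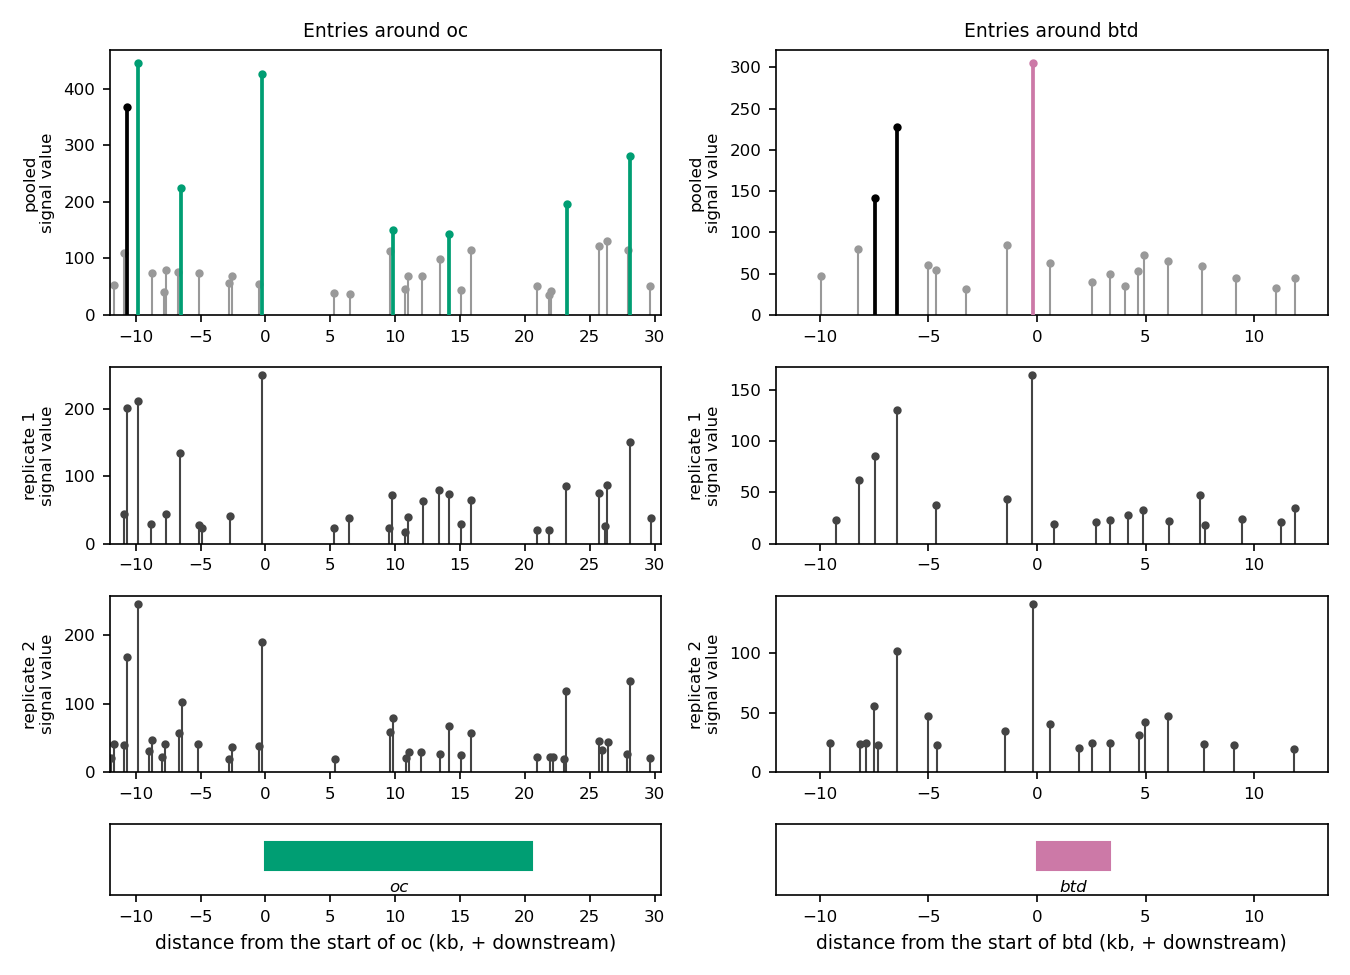
Signal values (y axes) of pooled and replicate entries against distance from the first start of oc (left) and of btd (right) in kb, with positive values downstream and the gene bodies in the bottom panels. Coloured stems in the top panels are assigned summits, black stems are other thresholded summits, and grey stems are weaker pooled entries; oc has 7 coloured stems on both sides of and inside the gene, and btd has 1 at its start.

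Every one of the 4 genes had a promoter summit, that is, a summit within 500 bp of a transcript start, against 8.24% of all protein-coding genes (1149 of 13945). Their presence helped to choose the genes, so nothing further is read from this contrast. Which side of the start a summit took was not part of the rule. All 4 promoter summits were upstream, at 167 bp for both ems and btd, 292 bp for oc and 307 bp for E5. Over all summits within 500 bp of a protein-coding start, 70.4% (803 of 1141) lay upstream of the nearest one. With so few summits, 4 of 4 cannot be told apart from this share, and the difference was not tested. Of the 15 summits, 9 were intergenic, 4 were at promoters and 2 were intronic. The intergenic share in the whole thresholded list was 20.5% (812 of 3953). The 4 genes have long stretches without genes beside them, and the part this plays in the count was not tested.

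The territory of a gene, its body plus the sequence within reach that is nearest to it, was long for all of them. It was 22.8 kb for ems, 23.5 kb for E5, 40.5 kb for oc and 16.9 kb for btd, against a median of 3.40 kb for all protein-coding genes. Per 10 kb of territory there were 1.76 summits for ems, 1.73 for oc, 1.28 for E5 and 0.591 for btd. Over the 6 chromosome arms the list held 0.295 per 10 kb. Thus ems and oc were alike per length although oc had more summits, and btd had the lowest value. The ems value counts separately the summits 206 bp apart, for which replicate 1 held a single entry. Its likeness to oc rests on counting both. The genes were chosen with their peaks in view, so the difference from the whole arms is a description only.

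Most of the 15 summits stood in both replicates. Of them, 14 had an entry within 100 bp in each full replicate list of 30000 entries, against 90.9% of all thresholded summits. Among the 3953 strongest entries of each replicate the count was 11 of 15, against 61.8% of all thresholded summits (2442). The 4 that missed this stricter match were the weakest E5 summit, both intronic oc summits and the ems summit at 4514 bp. Of these, the intronic and E5 ones were also the weakest 3 of the 15 by signal value. The thresholded list was itself derived from the replicate lists, so these shares are not independent evidence. By the entry nearest to each summit, 5 of the 15 ranked higher in replicate 1, among them all 3 at E5, and the others ranked higher in replicate 2. With 2 replicates and no read counts in the lists used here, the depth behind these ranks is unknown.

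**Figure D3:**
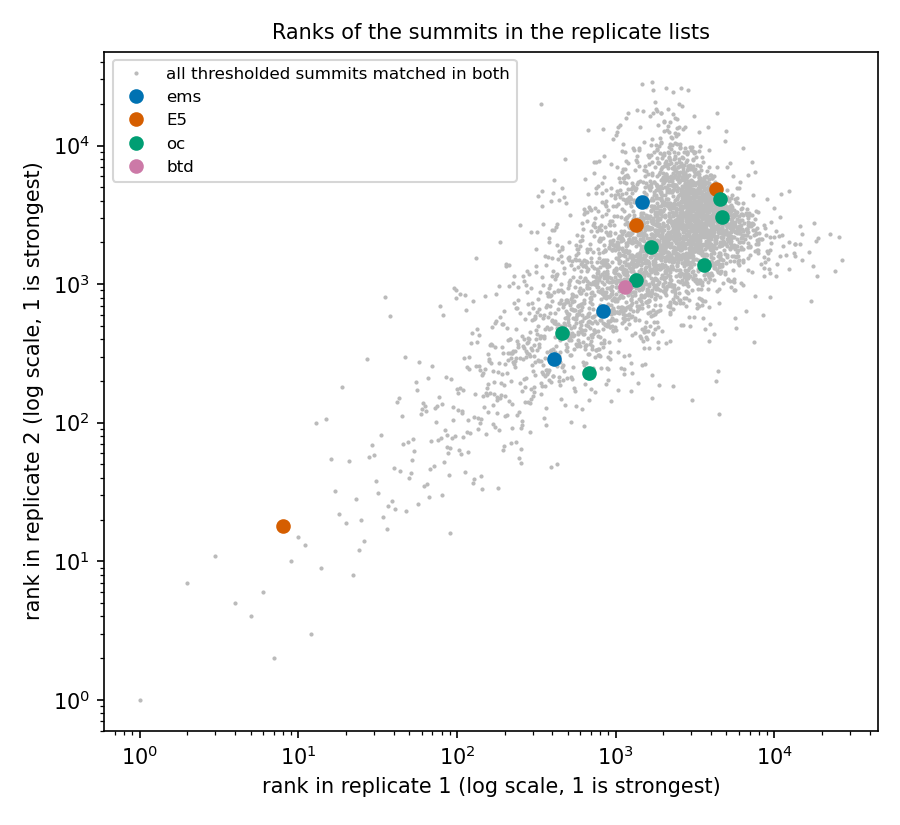
Rank in replicate 2 (y axis, log scale) against rank in replicate 1 (x axis, log scale) for the 3595 thresholded summits matched in both lists (grey) and for the 14 matched summits of ems, E5, oc and btd (colours), with rank 1 the strongest. Among the coloured points the strongest E5 summit stands alone, at ranks 8 and 18, with grey points near it. The rest of the coloured points lie between rank 227 and rank 4827 on the axes.

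The pooled list also held weaker entries at each locus, which the thresholded list left out. As that list is labelled as peaks and background, these entries may be background, and their counts are a description only. The same assignment gave 17 weaker entries to ems, 9 to E5, 24 to oc and 13 to btd. Of these, 16 at ems, 9 at E5, 20 at oc and 13 at btd overlapped no thresholded peak. At ems the distribution was lopsided: all 4 thresholded summits were upstream, while 11 of the 17 weaker entries were downstream, 4 were upstream and 2 were inside the gene. None of the ems weaker entries exceeded a signal value of 68.01 (rank 11447), far below the weakest ems summit in the thresholded list at 215. At E5 the strongest weaker entry, at 117.6 (rank 5211), was 1364 bp upstream, between the summit at the start and the strongest one. At oc the strongest, at 130.2 (rank 4462), was downstream of the gene, and 9 of the 24 were inside the body. At btd the strongest, at 85.08 (rank 8367), was 1372 bp upstream, and 9 of the 13 were downstream. The assignment reached 10 kb downstream of btd but less far upstream, where nej is 7119 bp away, so the 2 sides are not comparable. The step between the weakest assigned summit and the strongest weaker entry was therefore wide at ems and btd and narrow at oc and E5.

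Other genes of anterior and gap patterning were counted the same way. ems, E5, oc and btd all had an assigned summit, against 13.4% of protein-coding genes, and 3 of the 4 had at least 3, against 2.99%. Of 9 other head patterning genes, 8 had a summit, 8 had one at a promoter and 4 had at least 3. Of 7 gap genes of the trunk and the embryo's ends, 3 had a summit, 2 had one at a promoter and 1 had at least 3. The promoter share of all protein-coding genes was 8.24%. Summits of ems, E5 and oc were among the 395 strongest peaks, and 2.3% of protein-coding genes had one there. By rank in replicate 1 only E5 of the 4 had a summit that high, and by rank in replicate 2 ems, E5 and oc did. These replicate counts were added after the data were seen. The other head genes with one in the thresholded list were slp2 (660), a forkhead gene active in the head and in segmentation, kn (628), which encodes a Collier/EBF protein, Dfd (613), a Hox gene of the head segments, and Optix (542), a homeobox gene of the sine oculis family. None of the 7 gap genes had one there. Their strongest signal value was 277, at hb, the hunchback gene, which is named after its value was seen. The genes with no assigned summit were Kr, kni, gt, tll and bcd, which is the maternal activator gene. Their territories ran from 4.78 kb (Kr) to 21.8 kb (kni), against 16.9 kb (btd) to 40.5 kb (oc) for the 4 members. These counts were not tested, and the lists were drawn up with earlier results of these data known.

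The pairs of related neighbours may be set side by side. btd and Sp1 are 32089 bp apart. btd had 1 assigned summit, with a signal value of 306, and Sp1, with a body of 26722 bp, had 5, with 325 at most. On the other side of btd, nej had 2 summits. E5 and ems had 3 and 4, with strongest signal values of 1561 and 479. The remaining neighbours differed: Art9 beyond ems and CG14362 beyond E5 had no assigned summit, the gene beyond the 3' end of oc, which encodes a chromatin assembly factor subunit, had 3, and Rubicon on its other side had 1.

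**Figure D4:**
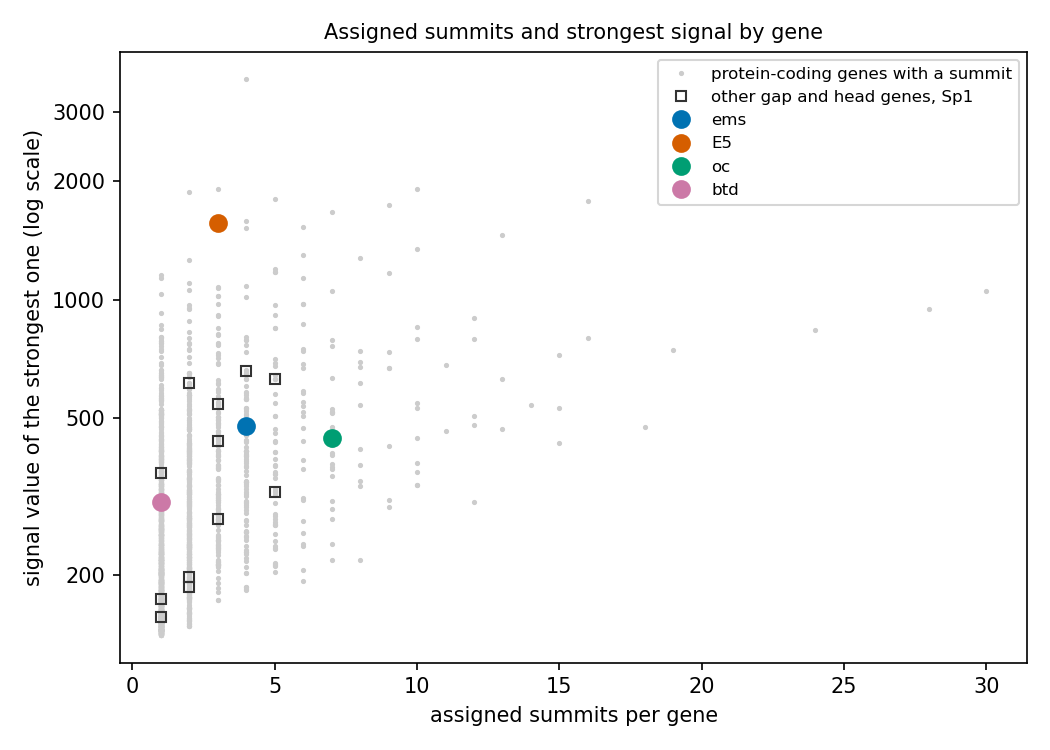
Signal value of the strongest assigned summit (y axis, log scale) against the number of assigned summits (x axis) for the 1865 protein-coding genes with at least 1 (grey), with ems, E5, oc and btd in colour and the other gap and head genes and Sp1 as open squares. E5, at 3 summits and 1561, has 1 of the 165 genes in its column above it, and oc, at 7 summits and 446, has 10 of 24 above it.

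By number of summits and strongest signal value together, each gene had near matches among the 1865. Likeness was the distance after both measures, the second on the log2 scale, were divided by their SD over these genes. It uses 1 list and says nothing of shared function. For ems the nearest were CG12912 and Hr3, which share the same peak and have 4 summits each and 454 at most, followed by fzr, CtBP and grn. For E5 they were erm (3 summits, 1905), CG13321, L, kay and CG9016, all at larger distances, of 0.393 to 0.616, than any match of the other genes. For oc they were Lim1 (7 summits, 430), PRAS40, bab1, CG18265 and sli. For btd they were lmd (1 summit, 305.6), Su(var)2-10, Nost, dsx and HHEX, all with distances under those found for ems, E5 and oc.

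The sequences at the 15 summits were then compared with those at all 3953. Each of the 15 was unique, as the central 51 bases occurred once in the 6 arms. GC content had a median of 53.5% over the 15 windows, from 39.6% to 61.4%, against 50.5% over all summits. In windows centred 350 bp away it was 36.6% for the 15 and 41.6% for all. The lowest GC content was at the ems summit at 4514 bp and the highest was at btd. Runs of 4 or more C or G were in 10 of the 15 windows (66.7%), against 65.7% of all. The longest, with 8 bases, was at the weaker intronic oc summit.

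GAGAG is the element bound by GAGA factor, a protein that opens chromatin at many developmental promoters. It was in 7 of the 15 windows (46.7%), against 27.1% of all summit windows and 15.0% of the windows 350 bp from all summits. Of the members' own windows 350 bp away, 1 held it. All 4 genes had it in at least 1 of the 15 summit windows. No share over all genes is given here, and a gene with several summits has several windows, so nothing is read from this count. At promoters it was in 3 of the 4 windows (E5, oc and btd), against 30.8% of the 1307 windows of the whole list that lie within 500 bp of any annotated start. Elsewhere it was in 4 of the 11, against 25.3%. In the oc and btd start windows printed above the matches are long repeats near the summit, and in the E5 start window they are at its edge. The ems start window holds none. The count depends on the window: it was 12 of 15 in windows reaching 100 bp to either side, against 44.7% of all, and 4 of 15 in windows reaching 25 bp, against 15.2%. In the narrowest windows it was at 2 of the 4 genes, oc and btd, again with no share over all genes.

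The other words searched gave counts of 0 or 1. CCCACCCC was in 0 of the 15 windows, which allows a share of up to 20%. It was in 6.37% of all summit windows and 0.455% of the windows 350 bp from all summits. The word was in 1 of the members' own windows 350 bp away. GGGCGG, the GC box bound by Sp and KLF proteins including Btd, was in 1 of 15 (6.67%), in the oc intron, against 11.5%. In windows reaching 100 bp it was in 3 of 15 (20%), at ems and oc, against 18.4%, so which share is higher depends on the window. TAATCC, the core bound by Oc and Bicoid, was in 0 of 15, against 1.95%. In windows reaching 100 bp it was in 1 of 15 (6.67%), at oc, against 3.87%, which also turns the order. TAATTA, the core bound by most other homeodomains, was in 0 of 15, against 3.47%, and CAGGTAG, the Zelda site, in 0 of 15, against 0.557%. Each 0 of 15 has the same limit of 20%. Every word was searched on both strands. The 15 windows come from 4 genes and are not independent, and none of these differences was tested. Nothing particular to the members is read from a count of 0 or 1. A missing word says only that its letters are not in the window.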

How the data were processed

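ChIP-seq peak lists of l(3)neo38-GFP embryos were used for 2 biological replicates that form 1 group. Per the texts deposited with the lists, each replicate list was made from its own alignments and a control, the pooled list from both alignments, and the thresholded list from these 3 by the irreproducible discovery rate procedure. For the peak caller, its version and the threshold, no source used here gives a name or value. The signal value of each entry was deposited by the authors, with no stated scale, and served only for description and ranking within a list. Starts, ends and summit offsets were used as deposited. Each pooled or replicate list on dm6 held 30000 entries. The pooled list is labelled as peaks and background, so its weaker entries may be background. The dm3 lists were not used here. No reads were in the lists used, so depth is unknown.

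Genes came from Ensembl release 115 on dm6, without transposable elements as transcript starts, and sequence from RefSeq release 6, on the 6 chromosome arms. Summits were matched between lists within 100 bp. Named genes are the 4 members, the listed genes with a summit among the 395 strongest or with none, the neighbours and the 5 nearest by likeness. hb was named outside this rule, after its value was seen. The members and lists were chosen with earlier results of these data known. Scripts ran in Python 3.11.15 with numpy 2.4.6 and pandas 2.3.3, and assignment, matching and word search were tested on simulated data. Alternatives were the reach, the nearest transcript start, the promoter, match and window distances, only peaks above the median signal and each replicate's own list. Shares are over genes or summits, which are not independent replicates, and limits on counts of 0 (3 counts) cover counting error only.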

Additional observations from a re-analysis of the deposited data

How the results depend on the processing

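Of the 15 assigned summits, 11 were left when only peaks above the list's median signal value of 209.6 were kept. The total was 14 with the nearest transcript start in place of the nearest gene body, 10 with a reach of 5 kb and 16 with 20 kb, and it ran from 12 to 13 when the strongest entries of 1 replicate's own list replaced the thresholded list. oc lost most, with 4 of its 7 summits left both at 5 kb and above the median. All 4 genes had a promoter summit above the median, in each replicate's list and at 1000 bp. With a promoter distance of 250 bp, 2 of them did, because the oc and E5 summits lie 292 and 307 bp from the starts. The count matched in both replicates' strongest sets was 9 at 50 bp and 12 at 250 bp. The strongest summit of oc had rank 389 in the thresholded list, 677 in replicate 1 and 227 in replicate 2. Counting ranks in replicate 1, 1 of the 4 genes had a summit among the 395 strongest in place of 3. No paired analysis was possible because there is 1 group. Depth is unknown.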
